A study of Mus musculus with 6 samples.

Results

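The 10 genes described here encode inhibitory or related immune receptors and were followed in macrophages from the epididymal fat of obese and lean mice: Cd72, Lair1, Sirpa, Pirb, Lilrb4a, Cd200r1, Cd300a, Cd300lf, Siglece and Siglec1. They were the 10 genes of a named list, each read from the array feature annotated with that gene alone, out of 30142 genes measured. A further feature listing Pirb together with another gene was not used. The genes were chosen by role and with their HFD minus NCD differences in log2 expression known, Cd72 as one of the strongest rises, so the differences of these 10 genes between diets are given as a description, with no p-value.

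The obese group was fed a diet with 60% fat (HFD) and the lean group normal chow (NCD), in both cases for 16 weeks from 6 weeks of age. All mice were male C57BL/6J animals of 22 weeks. The fat was digested with collagenase, and cells carrying the macrophage antigen encoded by Adgre1 were taken from the stromal vascular fraction with an antibody and magnetic beads. Each diet had 3 pools, named HFD1 to HFD3 (10 mice each) and NCD1 to NCD3 (20 mice each), with 1 array per pool. The pool was the replicate, so variation among individual mice is not shown. Values are log2 expression as deposited, so that a difference of 1 is a 2-fold change, and levels were not compared between genes because each array feature has its own brightness. In such bulk samples, fewer cells of a type and less RNA per cell cannot be told apart.

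Inhibitory receptors of myeloid cells set a brake on activation. Most carry a tyrosine motif in the cytoplasmic tail, the ITIM, which is phosphorylated by Src family kinases and then recruits the phosphatases SHP-1 (Ptpn6), SHP-2 (Ptpn11) or SHIP-1 (Inpp5d), and these oppose signals that pass through the adaptors Tyrobp and Fcer1g and the kinase Syk. Several belong to families in which a related receptor lacks the motif and signals through such an adaptor instead. Of the genes described here, Cd200r1 works without an ITIM, through the docking proteins Dok2 and Dok1, and Siglec1 is an adhesion receptor for sialic acid with no ITIM of its own.

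Promoter sequence was on hand for 6 of the 10 genes, from RefSeq on GRCm38.p6, as 300 bases from 250 before to 50 after the annotated start. Cd72 is shown because its level differed most between the diets. The 250 bases before its start, on the minus strand at chr4:43454627-43454876, read as follows, with the letters TTCCTC in capitals, which are GAGGAA read on the other strand, the core recognised by PU.1, the ETS factor of myeloid and B cells.
Cd72: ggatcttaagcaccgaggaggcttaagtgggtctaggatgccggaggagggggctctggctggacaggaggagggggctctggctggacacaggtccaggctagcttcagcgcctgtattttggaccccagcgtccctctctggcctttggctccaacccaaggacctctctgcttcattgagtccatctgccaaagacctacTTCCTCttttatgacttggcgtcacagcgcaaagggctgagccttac
The match in Cd72 began 47 bases before the start. GAGGAA was searched on both strands, with no other motif, after the sequences had been read. It was found in all 6 promoters and in 28.3% of all 32851 promoters of the same length. The match nearest to the start in each of the other 5 is shown in 30 bases, with the match in capitals.
Lair1, chr7:4063213-4063242, minus strand: aagagaaacctcTTCCTCtccatgtgggga
Cd300a, chr11:114889990-114890019, plus strand: ggctagcaggtcTTCCTCtccacaaggctg
Pirb, chr7:3720452-3720481, minus strand: tgaggagggcagTTCCTCtttctgtggggc
Cd300lf, chr11:115133975-115134004, minus strand: aagtggctaaagGAGGAAgtgccgagtgag
Siglece, chr7:43660155-43660184, minus strand: tgcatctcttagTTCCTCaaagcagagcct
The match began 26 bases before the start in Lair1, 39 in Cd300a, 87 in Pirb, 11 in Siglece and at the start itself in Cd300lf. Promoters with the match thus belonged both to genes that differed widely between diets and to genes that did not, as the values below show. A match in letters is not a measured binding site.

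In the HFD pools, Cd72 was 11.3-fold higher than in the NCD pools, Lair1 3.63-fold, Siglec1 and Cd300a 2.78-fold each, Cd200r1 2.69-fold and Sirpa 2.36-fold. Pirb, Lilrb4a, Cd300lf and Siglece did not pass the threshold. In the limma fit over all genes, 6 of the 10 were called higher at an adjusted p under 0.05 and 0 were called lower (7 higher and 1 lower, Siglece, at an unadjusted p under 0.05, which 13.3% of all genes passed with HFD higher and 11.1% with HFD lower). Over all genes 4.96% were called higher, 2.87% lower and 7.83% in either direction, and because the genes were chosen with this contrast known, nothing is read from the share among them. The median difference was 1.33 over the 10 genes and 0.01 over all genes. All 10 lay above the array's background level of 6.23 on every array.

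**Figure D1:**
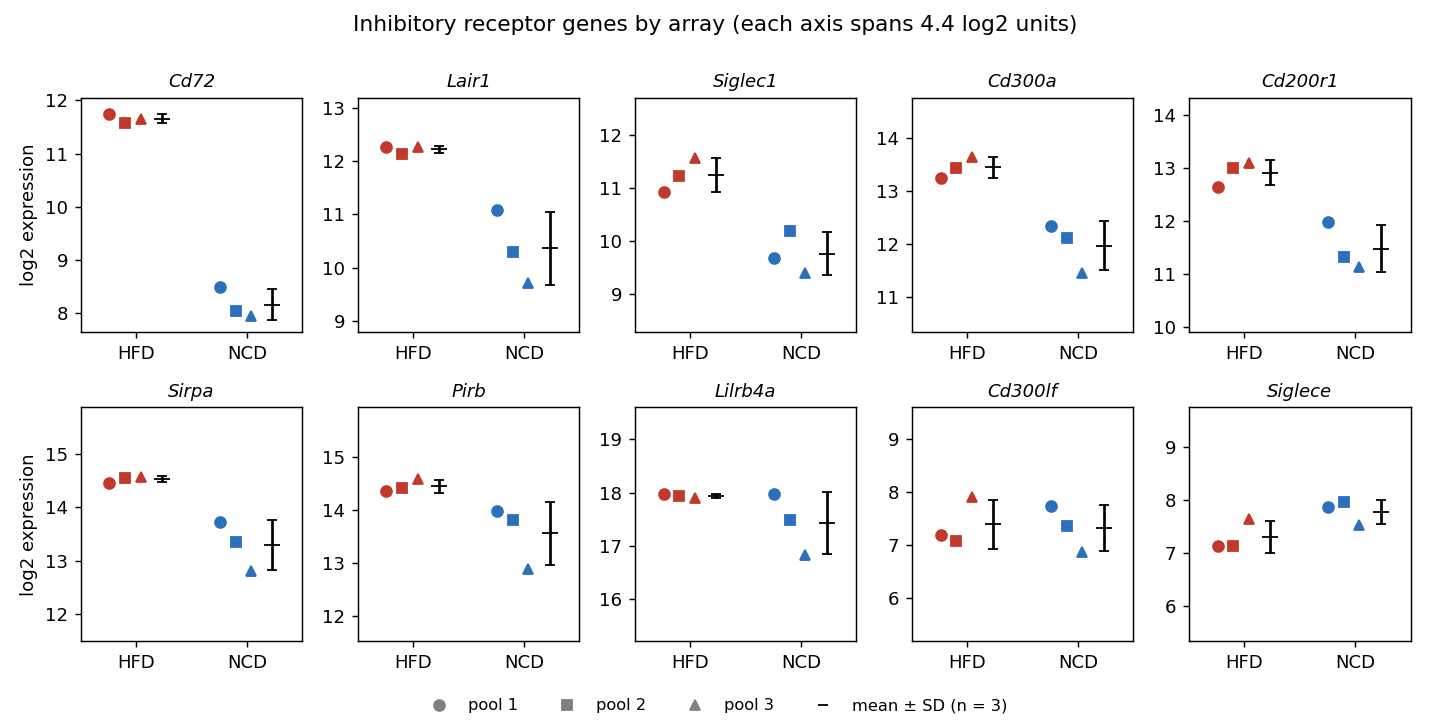
Log2 expression of each receptor gene on each array, with HFD pools in red at the left and NCD pools in blue at the right, symbols for pools 1 to 3, and the mean ± SD (n = 3) in black; genes run from the largest HFD minus NCD difference to the smallest, and each axis spans the same width. Cd72 has the widest gap between the diets, and in Lair1, Sirpa, Pirb and Lilrb4a the NCD pools spread far more than the HFD pools.

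Cd72, a C-type lectin-like receptor of B cells that macrophages also carry, is bound by the semaphorin Sema4d and recruits SHP-1. It was at 11.74, 11.57 and 11.66 on HFD1 to HFD3, against 8.49, 8.04 and 7.95 on NCD1 to NCD3. The lowest HFD array lay 3.08 above the highest NCD array. The difference was 3.50 ± 0.16 (HFD minus NCD, with limma's moderated standard error, 3 arrays per diet), which ranked 11 among the rises of all 30142 genes. It ran from 3.39 to 3.66 over the fits without 1 array and was called in each of them, which, as Cd72 was chosen for this difference, is a description only. Because Cd72 is also a B cell gene, the markers of B cells are given beside it. Their mean level was 7.79 to 8.31 on HFD arrays and 7.75 to 9.45 on NCD arrays, and it was highest on NCD1. None of the 7 measured markers was called (0 at an unadjusted p under 0.05), and all 7 were above background in both diets. Of these, Ms4a1, the gene of CD20, was at 10.30, 11.33 and 10.20 on HFD1 to HFD3, against 13.09, 10.97 and 10.35 on NCD1 to NCD3. The part of B cells in the Cd72 values was not tested.

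The 5 genes with the profile most like that of Cd72 over the 6 arrays, each centred on its own mean, were Cdk18, a cyclin-dependent kinase, Olfr111, an olfactory receptor gene, Fat3, an atypical cadherin, Hpgds, the haematopoietic prostaglandin D synthase, and Ctsk, the lysosomal collagenase cathepsin K. Their root mean square distance from the Cd72 profile was 0.11 log2 for Cdk18, 0.12 for Olfr111, 0.18 for Fat3, 0.21 for Hpgds and 0.22 for Ctsk. Olfr111 averaged 11.46 on HFD and 7.85 on NCD arrays, and Cdk18 12.63 on HFD and 9.11 on NCD arrays, while Fat3 averaged 9.15 on HFD and 5.67, below background, on NCD arrays. Since all 5 were chosen for this likeness, it is a description over 6 arrays.

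Lair1, the receptor for collagens and for the complement component C1q, had the second largest difference. It was at 12.26, 12.14 and 12.27 on HFD1 to HFD3, against 11.09, 10.29 and 9.71 on NCD1 to NCD3. The HFD arrays lay within 0.13 of each other and the NCD arrays within 1.38, and the diets did not overlap. The difference was 1.86 ± 0.33, and it ran from 1.54 without NCD3 to 2.22 without NCD1. The call held in the fits that left out NCD1 or NCD3, and was lost in the other 4.

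Sirpa, the receptor for the "do not eat me" protein CD47 and a brake on phagocytosis, was at 14.47, 14.56 and 14.57 on HFD1 to HFD3, against 13.73, 13.35 and 12.79 on NCD1 to NCD3. The groups did not overlap, and NCD3 was the lowest array. The difference was 1.24 ± 0.23, and its call too held only in the fits that left out NCD1 or NCD3. Cd200r1, the receptor for CD200, was at 12.64, 13.00 and 13.09 on HFD1 to HFD3, against 11.99, 11.32 and 11.14 on NCD1 to NCD3. All HFD arrays lay above all NCD arrays, by at least 0.65. The difference was 1.43 ± 0.25, and the call was lost without HFD2, HFD3 or NCD2.

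The CD300 receptors bind phospholipids of dying cells and other membrane lipids, and Cd300a and Cd300lf lie in one gene cluster. Cd300a was at 13.24, 13.43 and 13.64 on HFD1 to HFD3, against 12.34, 12.11 and 11.45 on NCD1 to NCD3, a difference of 1.47 ± 0.25 with no overlap. Leaving out NCD1 or NCD3 kept the call, and leaving out any of the other 4 arrays ended it. Cd300lf was at 7.19, 7.06 and 7.90 on HFD1 to HFD3, against 7.73, 7.35 and 6.87 on NCD1 to NCD3. The Cd300lf arrays of the diets overlapped, with HFD3 the highest and NCD3 the lowest of the 6, and the difference was 0.07 ± 0.29, with values from −0.19 without HFD3 to 0.28 without NCD1. Cd300lf, a receptor also found on neutrophils, was highest on HFD3, the array with the highest mean of the neutrophil markers. The mean of the 7 neutrophil markers was 10.17 on HFD3, between 7.31 and 7.40 on the other HFD arrays, and between 8.38 and 8.82 on NCD arrays. Not all markers followed this: Ly6g was at 7.09 on HFD3, against 7.13 on NCD2 and 7.24 on NCD3. Camp lay below background in both diets. The part of these cells in the Cd300lf values was not tested.

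The list held 2 receptors that bind sialic acid. Siglec1, known as sialoadhesin or CD169, was at 10.93, 11.22 and 11.57 on HFD1 to HFD3, against 9.68, 10.20 and 9.41 on NCD1 to NCD3. The diets did not overlap, and the difference was 1.48 ± 0.25, called in 4 of the 6 fits without 1 array and not without HFD2 or HFD3. Siglece, an ITIM receptor of neutrophils and macrophages, was the only gene of the 10 with a lower mean in HFD. It was at 7.13, 7.12 and 7.64 on HFD1 to HFD3, against 7.86, 7.95 and 7.52 on NCD1 to NCD3. The groups overlapped because HFD3 lay above NCD3. HFD3 was also the array with the highest mean of the neutrophil markers, though Ly6g was higher on NCD2 and NCD3. The part of neutrophils in the Siglece values was not tested. The difference was −0.48 ± 0.19 and did not pass the threshold. Without HFD3 it was −0.65, also not called. The 5 profiles most like that of Siglece were Gm24519, Gm24377, Gm25342 and Gm24127, predicted genes, and Mir3969, at distances of 0.09 to 0.10, and none of these was called. Gm25342 and Mir3969 were below the background level on average in both diets, and Gm24127 and Gm24377 in HFD.

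Pirb and Lilrb4a are the mouse relatives of the human LILRB receptors. Pirb, which binds MHC class I, was at 14.35, 14.40 and 14.57 on HFD1 to HFD3, against 13.97, 13.82 and 12.88 on NCD1 to NCD3. The groups did not overlap, but NCD3 lay well below the other 5 arrays, and the difference of 0.88 ± 0.28 was not called. It was 0.55 without NCD3, where it was not called, and 1.09 without NCD1, the one fit without 1 array in which it was called. Lilrb4a, a fibronectin receptor, was at 17.97, 17.94 and 17.91 on HFD1 to HFD3, against 17.98, 17.49 and 16.83 on NCD1 to NCD3. NCD1 was as high as the HFD arrays, and the difference of 0.50 ± 0.27 was not called. It was 0.20 without NCD3 and 0.78 without NCD1. Pirb has close copies among the activating Pira genes and Lilrb4a has a close copy beside it in the genome, so shared signal between copies cannot be told apart here.

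Across the list, 7 of the 10 genes had no overlap between diets (30.6% of all genes did not overlap, 17.6% with HFD higher). The NCD pools were more variable than the HFD pools in 8 of the 10, against 64.0% of all genes, with a median SD of 0.16 in HFD and 0.46 in NCD for the receptors (0.11 in HFD and 0.15 in NCD over all genes). NCD3 was the lowest NCD array in all 10 genes and NCD1 the highest in 8. This order was not counted over all genes, so it is not read as a trait of the receptors.

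**Figure D2:**
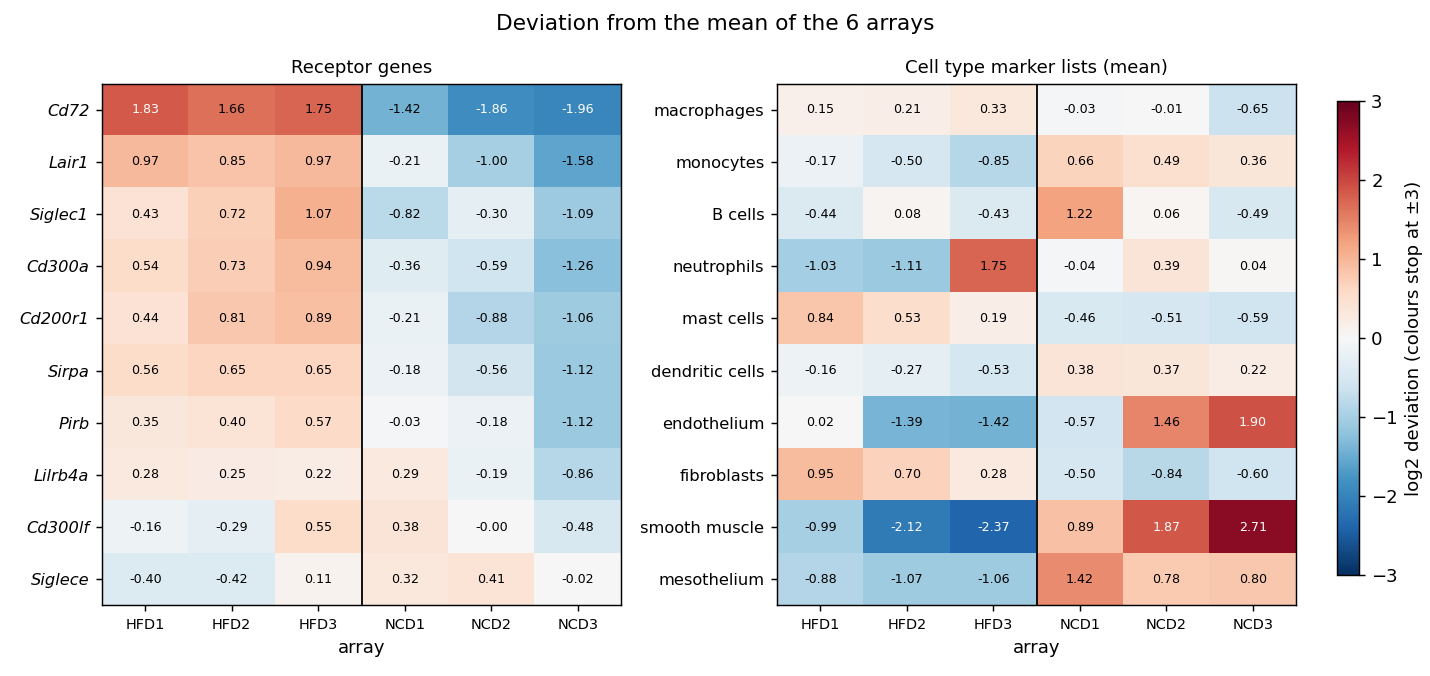
Deviation of each array from the mean of all 6 arrays, in log2 units, for the 10 receptor genes (left) and for the mean of 10 cell type marker lists (right), with HFD arrays left of the line and NCD arrays right of it. NCD3 is lowest for most receptors and for the macrophage markers (−0.65), and highest for endothelial (1.90) and smooth muscle markers (2.71).

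Markers of several cell types also differed between the arrays, and their part in the receptor values was not tested beyond the fits with a covariate given below. The mean of the 7 macrophage markers was 14.84, 14.91 and 15.02 on HFD1 to HFD3, against 14.67, 14.69 and 14.05 on NCD1 to NCD3, and all 7 were above background in both diets. Among them Cd68 and Fcgr1 were called higher and Mertk lower. The mean of the 7 endothelial markers ranged from 11.79 to 13.23 on HFD arrays and from 12.64 to 15.11 on NCD arrays, with 0 of 7 called (5 lower at an unadjusted p under 0.05) and all 7 above background. All 6 smooth muscle markers (7.73 to 9.11 on HFD, 10.98 to 12.80 on NCD arrays) and all 5 mesothelial markers (5.78 to 5.97 on HFD, 7.63 to 8.27 on NCD arrays, with 2 above background in HFD and 4 in NCD) were called lower. Of 5 mast cell markers 3 were called higher (list mean 6.90 to 7.55 on HFD, 6.13 to 6.26 on NCD arrays), Cpa3, Mcpt4 and Tpsb2, while Kit, the stem cell factor receptor, was at −0.13 (7.43 on HFD and 7.56 on NCD arrays, adjusted p = 0.801) and Ms4a2, a subunit of the high-affinity IgE receptor, lay below background in both diets. Mast cells are known to carry Cd300a and Cd200r1, and their part in those values was not tested.

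With the endothelial score as a covariate, the differences were 3.25 for Cd72, 1.31 for Siglec1, 1.20 for Lair1, 0.98 for Cd300a, 0.82 for Cd200r1 and 0.77 for Sirpa. Cd72 and Cd200r1 alone were then called among the 10. The values were 0.39 for Pirb, −0.01 for Lilrb4a, −0.45 for Cd300lf and −0.68 for Siglece. The mean of the endothelial markers itself differed by −1.86 between diets (HFD minus NCD). This covariate therefore also takes out changes that go with diet. With the macrophage markers as a covariate, a setting chosen after the data were seen that also takes out any change of those markers with diet, Cd72 was at 3.30 and alone was called, Lair1 at 1.21, Cd200r1 at 1.03, Siglec1 at 1.01, Cd300a at 0.89 and Sirpa at 0.72. Set against the mean of the macrophage markers on the same array, which itself was 0.45 higher in HFD, Cd72 was 3.04 higher, Lair1 1.41, Siglec1 and Cd300a 1.02, Cd200r1 0.97, Sirpa 0.78 and Pirb 0.43. Lilrb4a was then at 0.05, Cd300lf at −0.39 and Siglece at −0.93, and Siglece was called lower in that setting alone. Calls there rest on 120600 total degrees of freedom in limma, against 6.64 in the main fit, so they are not comparable with the other calls. All 6 genes called without a covariate had smaller differences with either covariate. Against the macrophage marker mean, the difference of every gene moves down by the same 0.45, so smaller rises there were fixed in advance. Of the 6 calls, 4 were lost with the endothelial score and 5 with the macrophage markers as a covariate. Over all genes, 550 of the 2359 calls were kept with the endothelial score and 186 with the macrophage markers. Nothing is therefore read from the losses among the receptors.

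**Figure D3:**
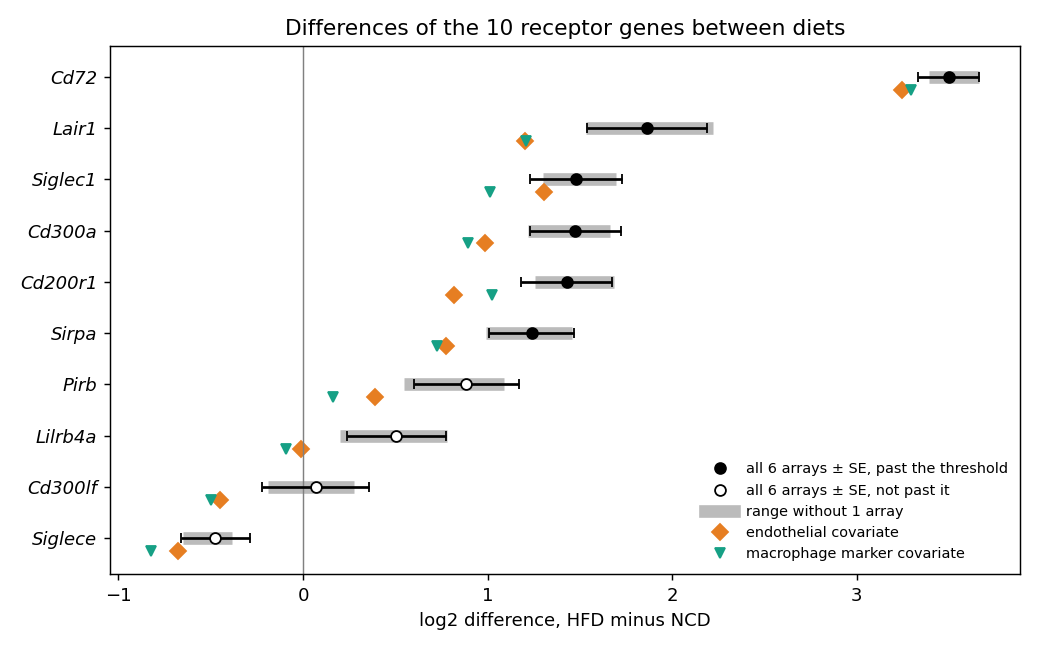
Log2 HFD minus NCD difference of each receptor gene with all 6 arrays (circles with the standard error; filled where the gene passed the adjusted threshold), the range over fits without 1 array (grey bars), and the difference with the endothelial score (diamonds) or the macrophage markers (triangles) as a covariate. Cd72 stays between 3.25 and 3.66 in every setting drawn, while Lilrb4a and Cd300lf cross 0.

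The genes around the receptors were read from 5 lists of 85 further measured genes, none of which is one of the 10. Of these 16 rose, 4 fell and 65 did not pass the test, which is 23.5% called against 7.83% of all genes, with a median difference of 0.06 against 0.01. Of all genes, 47.8% lay below the background level on average. With such dim genes left out, 2901 of 15747 genes were called, and 23 genes on the lists. The lists were chosen with earlier results of these data known, so nothing is read from the share called. All p-values of these genes are from limma, two-sided and Benjamini-Hochberg adjusted over all 30142 genes, with 3 arrays per diet. Of the 20 calls, 4 held in each fit without 1 array: Rasa1 and Rtn4, which rose, and Ceacam1 and Siglech, which fell. With the endothelial score as a covariate the calls of Clec4a2, Havcr2, Cd300ld, Sema4d, Col3a1, H2-K1, Cmas and St3gal6 were lost. Col4a1 (1.38, adjusted p = 0.0191) and Col4a2 (1.37, adjusted p = 0.0216) were called higher with it. Without it they were at −0.38 and −0.43 and not called. As the score itself differed with diet, nothing is read from the calls gained or lost with it.

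Among 16 other inhibitory receptors the median was −0.16, and 3 rose and 1 fell past the threshold. Clec12a, an ITIM lectin that senses uric acid crystals, was at 14.68, 14.67 and 14.81 on HFD1 to HFD3, against 13.38, 12.69 and 12.29 on NCD1 to NCD3. It rose by 1.93 ± 0.26 (3.82-fold, adjusted p = 0.0118). Clec4a2, the ITIM lectin DCIR, rose by 1.33 ± 0.24 (adjusted p = 0.0249), and Havcr2, the gene of TIM-3, by 2.10 ± 0.47 (adjusted p = 0.0465). Both calls were lost in at least 4 of the 6 fits without 1 array, and that of Clec12a without HFD2, HFD3 or NCD2. Ceacam1, an ITIM adhesion receptor, was at 13.32, 13.32 and 12.90 on HFD1 to HFD3, against 14.48, 14.56 and 14.51 on NCD1 to NCD3. It fell by 1.34 on the log2 scale (standard error 0.14, adjusted p = 0.00678) with no overlap. Ceacam1 is also made by endothelium, and with the endothelial score as a covariate the difference was −1.23 (adjusted p = 0.0384). The part of endothelial cells in the Ceacam1 values was not tested. Fcgr2b, the inhibitory Fc receptor, was at −0.57 ± 0.19 (adjusted p = 0.123). Pecam1, an ITIM receptor of endothelium and leukocytes, was at −1.77 ± 0.59 (adjusted p = 0.128). With the endothelial score as a covariate it was at −0.22 (adjusted p = 0.688). Pecam1 is itself part of that score, so a smaller difference was built in and nothing is read from it.

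The activating relatives and adaptors numbered 11, at a median of 0.17. The test called 3 of them higher, 1 lower and 7 neither. Cd200r4, an activating member of the CD200 receptor family, was at 11.42, 11.77 and 11.84 on HFD1 to HFD3, against 9.94, 9.10 and 8.78 on NCD1 to NCD3. It rose by 2.40 ± 0.30 (5.29-fold, adjusted p = 0.00967), beside 1.43 for Cd200r1. Cd300lb, an activating CD300 receptor, rose by 1.85 ± 0.23 (3.62-fold, adjusted p = 0.00953), and Cd300ld by 1.01 ± 0.21 (adjusted p = 0.0368), beside 1.47 for Cd300a and 0.07 for Cd300lf. The differences between these family members were not tested. All 3 calls were lost without HFD2, HFD3 or NCD2, and that of Cd300ld also without HFD1. Siglech, a receptor of plasmacytoid dendritic cells and some macrophages that signals through Tyrobp, fell by 1.32 on the log2 scale (standard error 0.15, adjusted p = 0.00734). The adaptors were not called: Tyrobp was at 0.87 ± 0.29 (adjusted p = 0.122) and Fcer1g at 0.65 ± 0.19 (adjusted p = 0.0924).

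The 22 kinases, phosphatases and docking proteins had a median of 0.69, and 4 rose while 0 fell in limma (12 and 0 at an unadjusted p under 0.05, against 13.3% and 11.1% of all genes). Rasa1, a GTPase-activating protein that dampens Ras and binds docking proteins, was at 14.90, 15.14 and 14.97 on HFD1 to HFD3, against 13.65, 13.15 and 13.28 on NCD1 to NCD3. It rose by 1.65 ± 0.16 (3.13-fold, adjusted p = 0.00522). Inppl1, the inositol phosphatase SHIP-2, rose by 0.89 ± 0.11 (adjusted p = 0.00967), and Dok1, a docking protein of the CD200 receptor pathway, by 1.04 ± 0.15 (adjusted p = 0.0126). Dok2, the other docking protein of that pathway, was named after its values were seen. It was at 0.76 ± 0.27 and was not called (adjusted p = 0.140). Blnk, the adaptor that links Syk and Btk in B cells and macrophages, rose by 2.15 ± 0.33 (4.43-fold, adjusted p = 0.0163). The Dok1 and Blnk calls were lost without HFD2, HFD3 or NCD2, and the Inppl1 call without HFD2 or HFD3. The ubiquitin ligase gene Cbl was at 0.69 ± 0.19 (adjusted p = 0.0731) and Skap2, an adaptor that binds Sirpa, at 0.77 ± 0.19 (adjusted p = 0.0591). The phosphatase that most of the receptors recruit, Ptpn6, was named after its values were seen. It was at 13.25, 13.48 and 13.40 on HFD1 to HFD3, against 13.37, 12.80 and 11.89 on NCD1 to NCD3, with overlap between diets (0.69 ± 0.35, adjusted p = 0.296).

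**Figure D4:**
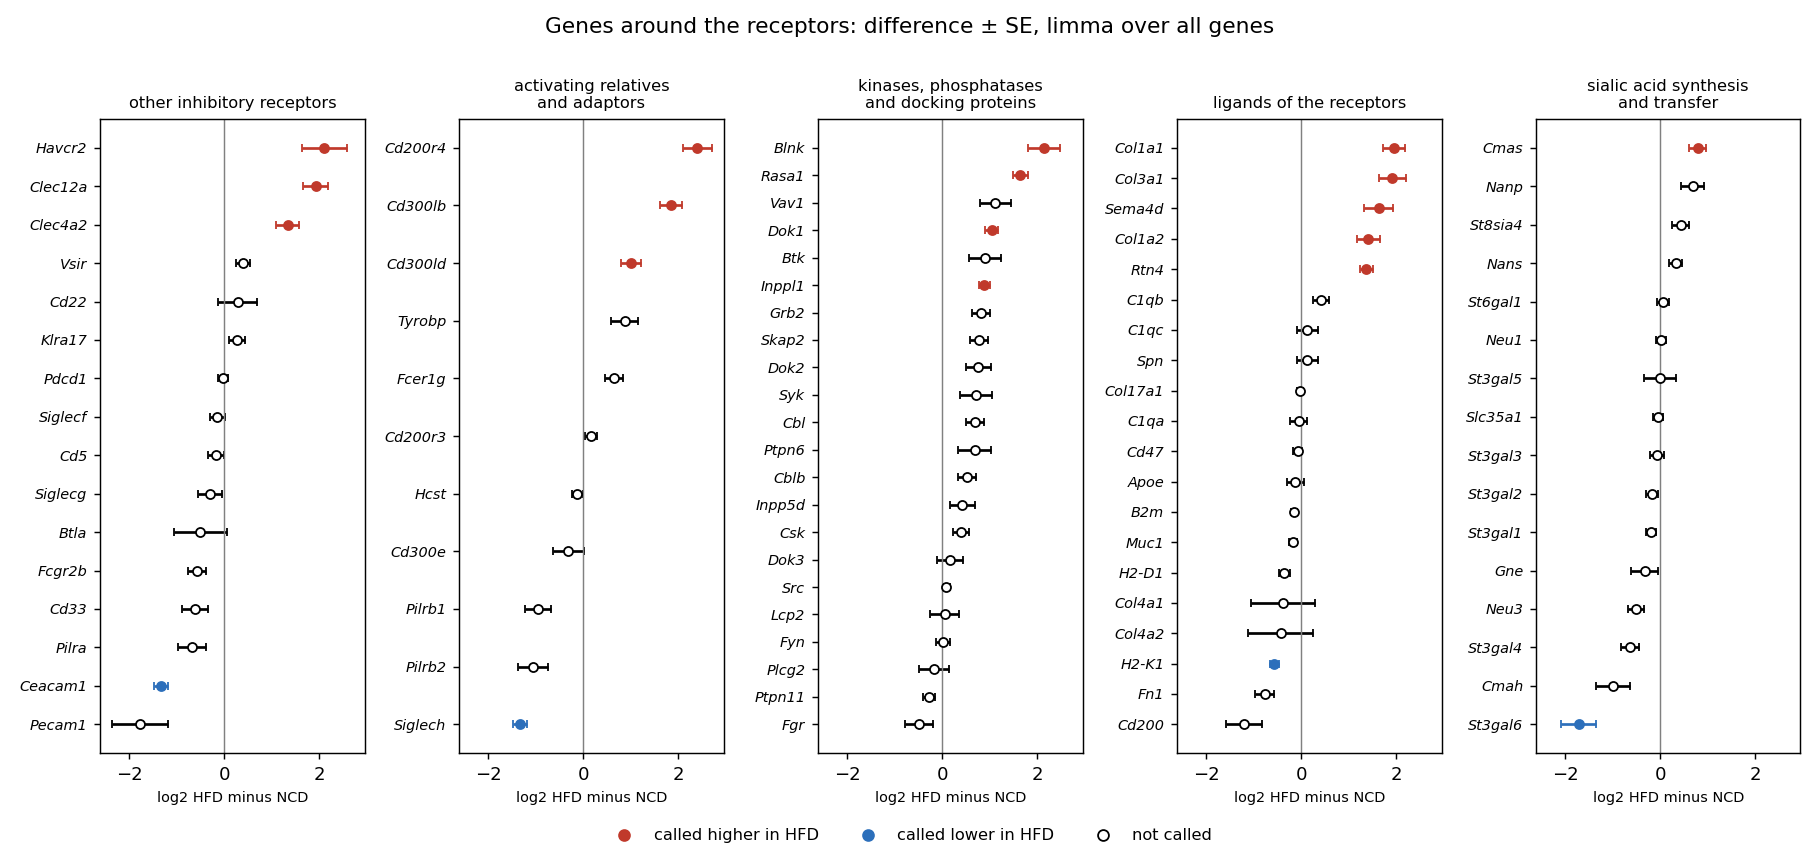
Log2 HFD minus NCD difference with its standard error for the 85 measured genes of the 5 lists, sorted within each list; red genes were called higher, blue genes lower, and open circles were not called. Most genes of the kinase, phosphatase and docking list lie right of 0, but 4 of 22 passed the test.

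Among 20 ligand genes, at a median of −0.06, 5 rose and 1 fell. The collagen genes Col1a1 (1.95 ± 0.24, adjusted p = 0.00910), Col3a1 (1.93 ± 0.29, adjusted p = 0.0150) and Col1a2 (1.41 ± 0.24, adjusted p = 0.0219), which encode ligands of Lair1, rose. Col1a1 was at 10.50, 9.83 and 9.55 on HFD1 to HFD3, against 7.98, 7.97 and 8.07 on NCD1 to NCD3. The Col1a1 call was lost without NCD2, that of Col3a1 without HFD2 or NCD2, and that of Col1a2 without HFD2, HFD3 or NCD2. Collagens are made by fibroblasts, and 4 of 5 fibroblast markers were called higher (list mean 10.15 to 10.82 on HFD, 9.03 to 9.37 on NCD arrays), of which Col1a1 and Col1a2 are themselves a part. The other fibroblast marker, Dcn, was at −0.88 and not called (adjusted p = 0.126), and the part of these cells in the collagen values was not tested. Rtn4, the gene of the Pirb ligand Nogo, was at 14.91, 15.11 and 15.02 on HFD1 to HFD3, against 13.90, 13.47 and 13.56 on NCD1 to NCD3. It rose by 1.37 ± 0.14 (adjusted p = 0.00643). The ligand of Cd72, Sema4d, was named after its values were seen. It was at 10.62, 10.84 and 10.87 on HFD1 to HFD3, against 9.80, 9.07 and 8.57 on NCD1 to NCD3, a rise of 1.63 ± 0.30 (adjusted p = 0.0266) that was lost without any HFD array or without NCD2. H2-K1, an MHC class I heavy chain, fell by 0.56 on the log2 scale (standard error 0.10, adjusted p = 0.0243), a call lost without any HFD array or without NCD2, and its light chain B2m was at −0.16 ± 0.07 (adjusted p = 0.226). Fn1, fibronectin, was at −0.77 ± 0.20 (adjusted p = 0.0722). Cd47 and Cd200 were also named after their values were seen. The ligand of Sirpa, Cd47, was at −0.07 ± 0.10 (adjusted p = 0.733) and that of Cd200r1, Cd200, at −1.20 ± 0.38 (adjusted p = 0.112). Cd200 was highest on NCD3 (11.74), where the endothelial markers were also highest, and was at −0.23 with the endothelial score as a covariate (adjusted p = 0.604). The part of endothelial cells in the Cd200 values was not tested.

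Of 16 genes that make or transfer sialic acid, the ligand sugar of Siglece and Siglec1, 1 rose and 1 fell, at a median of −0.06. Cmas, which activates sialic acid, rose by 0.79 ± 0.17 (adjusted p = 0.0438), a call that remained in 1 of the 6 fits without 1 array. St3gal6, a sialyltransferase, was at 8.35, 7.70 and 7.79 on HFD1 to HFD3, against 9.02, 9.56 and 10.42 on NCD1 to NCD3. It fell by 1.72 on the log2 scale (standard error 0.36, adjusted p = 0.0399), a call that held without NCD1 and without NCD3 and in no other fit without 1 array. St8sia4, a polysialyltransferase, was at 0.44 ± 0.18 (adjusted p = 0.201) and St3gal1 at −0.20 ± 0.10 (adjusted p = 0.298).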

How the data were processed

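Values were used as the authors deposited them, in log2 units, in 1 column per pool and with a line for each transcript cluster, the array feature for a gene or transcript. Per the submitters' processing notes RMA was among the authors' tools, with Transcriptome Analysis Console 3.1.0.5 and Affymetrix Expression Console 1.4.1.46. Which step each did and the genome build are not given in the sources used here. RNA (100 ng per pool) was labelled for 1 array each.

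Of 72688 features, 6732 controls were left out. The 30604 clusters with 1 gene symbol were reduced to 30142 genes by the highest mean, with symbols updated by Entrez identifier through RefSeq. HFD was set against NCD in limma 3.58.1 (eBayes with a trend after lmFit) in R 4.3.3 (version 1.17.8 of data.table), with two-sided p-values. Genes with a Benjamini-Hochberg adjusted p under 0.05, over the whole table, count as called. The background level of 6.23 is the mean over arrays of the 95th percentile of 23 background probe sets. The number of arrays limits the precision (median standard error 0.118). On simulated data of 30142 genes and 5 runs, the test found 67.6% of 2-fold and 89.2% of 4-fold changes. The simulated noise was independent between genes and of the same size in both diets, with no shift shared by genes on an array. These shares therefore do not give the recovery for the receptors, whose spread differed between the diets. Figures used Python 3.11.15, pandas 2.3.3 and matplotlib 3.10.9.

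Members and lists were chosen with earlier results of these data known. Of 187 genes on the 20 lists, 161 were measured and 26 were not analysed here. Named from each of the 5 pathway lists were the called genes with the 4 smallest adjusted p in each direction and the 2 genes not called with the highest mean signal, which served only to choose names. The 15 cell type lists also held plasma cells, T cells, natural killer cells, eosinophils, dendritic cells, monocytes and adipocytes. Among these Cd209a alone, on the dendritic cell list, was called, and it was lower. The replicate numbers of the diets were not taken as pairs: the deviations of same-numbered arrays correlated at −0.457, −0.124 and −0.148 across genes.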

Additional observations from a re-analysis of the deposited data

How the results depend on the processing

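With limma over all genes, 2359 genes were called (1494 higher, 865 lower). The number was 4282 with array weights, 727 with the endothelial covariate and 212 with the macrophage covariate. With the replicate number as a block it was 144, and it ran from 442 without HFD2 to 4713 without NCD1. With values set against the macrophage markers it was 5311 (456 higher, 4855 lower). That scaling moved the median of all genes to −0.44. Its total degrees of freedom in limma were 120600, against 6.64 in the main fit, which makes calls easier. Of the 10 receptors 6 were called higher. With values set against the macrophage markers the same 6 were called and Siglece was called lower. The number was 2 with the endothelial covariate, 1 with the macrophage covariate and 1 with the replicate block (Cd72), and ran from 1 to 7 without 1 array. Of the 85 genes on the lists 20 were called. The number was 3 with the macrophage covariate (0 higher), 34 against the macrophage markers (12 higher, 22 lower), 0 with the replicate block in limma (37 at an unadjusted p under 0.05), and ran from 5 to 32 without 1 array. The cause was not tested; fits with a covariate, a block or fewer arrays also leave fewer residual degrees of freedom, and the labels do not pair the pools by number. With no trend, robust eBayes, median centring, quantile normalization, dim genes left out or clusters averaged, the same 6 receptors were called and the number of genes stayed within 1.5 times of 2359. No called gene on the lists and no called receptor changed sign in any of these fits. The 2 settings with macrophage markers were chosen after seeing the data.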
